A study of Homo sapiens with 8 samples.

Results

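The genes described here are the replication-dependent histone genes, which lie in the 4 clusters HIST1 to HIST4 and encode the linker histone H1 and the core histones H2A, H2B, H3 and H4. Members were the protein-coding genes with a HIST cluster symbol, taken by name and not by expression. RefSeq lists 71 such symbols, of which 42 were matched to an identifier among the 60291 genes of the count tables. The matched genes were 6 of 6 H1, 10 of 17 H2A, 12 of 18 H2B, 9 of 15 H3 and 5 of 15 H4 symbols, and the other 29 symbols were not analysed here. On GRCh37, 29 members lay in HIST1 on chromosome 6 between 25723625 and 27861669, 9 in HIST2 and 3 in HIST3 on chromosome 1, and HIST4H4 on chromosome 12.

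RNA was measured in A549, a lung adenocarcinoma cell line in which loss of KEAP1 function keeps the transcription factor NRF2, the product of NFE2L2, highly active. The NFE2L2 siRNA group held 3 libraries, each from cells transfected once with a different NFE2L2 duplex (NFE2L2 siRNA 1, 2 and 3), so that the spread within this group included the difference between duplexes. The control siRNA group held 4 libraries, in which replicates 1 and 2 carried the first control duplex and replicates 3 and 4 the second, and a single mock transfection stood beside them. Each transfection used 250000 cells with Lipofectamine RNAiMAX, and each but the mock used 5 nmol siRNA. The labels do not say whether transfections came from separate cultures, so p-values measure the spread between these transfections.

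Replication-dependent histone genes are transcribed mainly in S phase, when newly copied DNA has to be packed into nucleosomes. Their mRNAs mostly lack introns and a poly(A) tail and end instead at a short stem-loop, which is bound by SLBP and cut with the help of the U7 snRNP. The replication-independent histones, such as H3.3 and H2A.Z, come from polyadenylated mRNAs made throughout the cell cycle. The libraries were made from total RNA after removal of ribosomal RNA, without selection for poly(A), so that mRNAs without a tail were kept.

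The stem-loop was searched in the gene sequence of every member, within 200 bases after the stop codon, and is shown because it marks these genes as a class. It was found in 42 of 42 members, starting 23 to 68 bases after the stop codon. In the sequences, which are GRCh37 DNA in the sense of the gene, capitals mark the 6 bases on each side of the stem and lower case marks the 4-base loop.
HIST1H3B and 25 other members: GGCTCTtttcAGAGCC
HIST1H2BK and 8 other members: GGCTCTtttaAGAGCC
HIST1H4B and 4 other members: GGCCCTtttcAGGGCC
HIST1H2AG: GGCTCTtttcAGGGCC
HIST2H2AC: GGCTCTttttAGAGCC
The copy of HIST1H3B lay at chr6:26031825-26031840 on the minus strand and that of HIST1H4B at chr6:26027129-26027144, also on the minus strand. The third form was carried by all 5 H4 members, HIST1H4B, HIST1H4C, HIST1H4H, HIST1H4J and HIST4H4. Among 20048 coding genes searched in the same way, 72 (0.359%) held a match to this stem-loop pattern, and 68 of those 72 were histone cluster or H1 genes.

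Knockdown was checked first. NFE2L2 gave 1178, 2044 and 1262 reads under NFE2L2 siRNA 1, 2 and 3, against 3974, 4100, 4166 and 4227 in the control libraries. All 3 knockdown libraries lay below all 4 controls, at 29.5%, 46.6% and 26.6% of the control mean, and the log2 fold change was -1.55 (SE 0.18, adjusted p = 0.000995 by edgeR's quasi-likelihood test, Benjamini-Hochberg over every gene tested). For NQO1, a classical NRF2 target, the log2 fold change was -2.19 (SE 0.13, adjusted p = 1.94e-05). Gene counts totalled 35525141 to 41645410 per library. The share of alignments outside genes was 15.3% under NFE2L2 siRNA 1, 12.8% under 2 and 12.8% under 3, against 11.7% to 14.99% in the controls. Of the 6 A549 epithelial markers, KRT8 and KRT18 had at least 111143 reads in every library and EPCAM 142 to 427. Their sum stood at 74.9%, 64.3% and 99.2% of the control mean under NFE2L2 siRNA 1, 2 and 3. Within it AKR1B10, also a known NRF2 target, stood at 8.84%, 9.72% and 5.75%. Other markers of the list stood above the control mean under every duplex. EPCAM was at 130%, 217% and 175%, KRT19 at 166%, 134% and 251%, and CDH1 at 172%, 162% and 168%. KRT8 was at 112%, 98.5% and 147%, and KRT18 at 103%, 81.8% and 146%. The lung type 2 cell markers SFTPC, SFTPB and SFTPA1 stayed between 0 and 6 reads, SFTPA1 at 0 throughout. Markers of other cell types were low but higher under NFE2L2 siRNA. The 5 fibroblast markers summed to 11.6 to 17.2 CPM against 5.07 to 6.34 in the controls, mostly from COL1A1, with COL1A2 and DCN at 0 to 3 reads. The 5 leukocyte markers summed to 7.73 to 11.1 against 4.54 to 6.79 CPM, nearly all from CD14, and the 2 endothelial markers to 0.615 to 0.987 against 0.215 to 0.305 CPM. Their part in the histone results was not tested.

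Histone cluster mRNA was low under 2 of the 3 NFE2L2 duplexes and at the control level under the other. The 42 members summed to 1637 CPM (counts scaled to the size of each library, with the composition factor TMM of edgeR) under NFE2L2 siRNA 1, 3338 under NFE2L2 siRNA 2 and 2113 under NFE2L2 siRNA 3. The controls gave 3321, 3413, 3105 and 3093 CPM, or 3233 ± 159 (SD, n = 4), and the mock library gave 3516. NFE2L2 siRNA 1 and 3 thus stood at 50.6% and 65.4% of the control mean, below all controls, while NFE2L2 siRNA 2 stood at 103%, within the range of the controls. As a share of all gene counts, the members held 0.163%, 0.340% and 0.216% under the NFE2L2 duplexes, and 0.311% to 0.335% in the controls. NFE2L2 siRNA 2 had both the highest remaining NFE2L2 mRNA of the 3 duplexes (46.6% of the control mean) and the highest histone sum. Between the other duplexes the order differed, with the lowest NFE2L2 mRNA under NFE2L2 siRNA 3 (26.6% against 29.5%) and the lowest histone sum under NFE2L2 siRNA 1. A relation between knockdown and histone level was not tested. In bulk RNA, fewer cells in S phase and less histone mRNA per cell cannot be told apart.

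**Figure D1:**
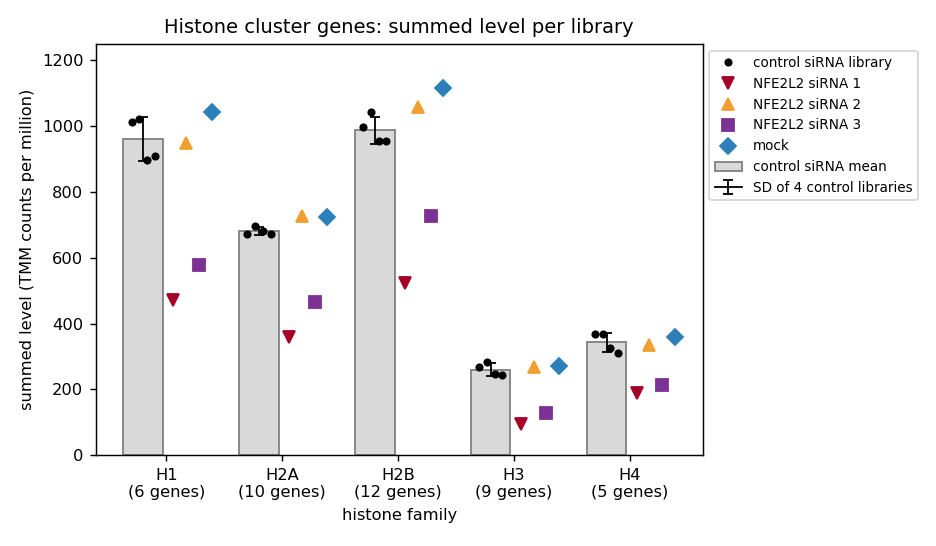
Summed TMM CPM (vertical axis, from 0) of the members of each histone family (horizontal axis), with grey bars and whiskers for the mean and SD of the 4 control siRNA libraries, black points for each of them, and coloured symbols for each NFE2L2 siRNA and the mock library. In every family NFE2L2 siRNA 1 is the lowest library and NFE2L2 siRNA 3 the next, whereas NFE2L2 siRNA 2 lies near the control bar.

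With edgeR on 3 NFE2L2 and 4 control libraries, 0 of the 35 members with enough reads to be tested passed an adjusted p of 0.01, where 2.76% of all 17811 tested genes did. The count was also 0 with DESeq2, which called 7.38% of all genes, and 0 with limma-voom, which called 2.61%. Unadjusted p-values under 0.05 were reached by 13 of 35 members (37.1%), against 25.02% of all tested genes. The median log2 fold change over the 35 members was -0.49, and 32 of them had a negative value, while the median over all tested genes was 0.01. The smallest adjusted p-values belonged to HIST2H2AC (0.061) and HIST2H2AB (0.065).

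The outcome of that test turned on NFE2L2 siRNA 2. With this library left out, 20 of 35 members were lower at an adjusted p under 0.01, where 2.94% of all 17721 genes tested in that fit were lower, and 0 of the 35 were higher, where 2.22% of all genes were. The median log2 fold change over the members was then -0.91, against -0.24 without NFE2L2 siRNA 1 and -0.36 without NFE2L2 siRNA 3. Leaving out any of the other 6 libraries gave 0 members past the threshold. The 20 genes comprised 3 of the 4 well-counted H1 genes, 5 of 7 H2A, 6 of 11 H2B, 3 of 3 H3 and 3 of 5 H4, where well-counted means an average of at least 50 reads over the 7 siRNA libraries. That fit held 2 NFE2L2 libraries against 4 controls. Leaving out the duplex at the control level keeps the 2 that agree, so its adjusted p-values, here and below, are descriptive. They give no separate support for a fall under NFE2L2 siRNA. The reason for the difference between duplexes was not tested.

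**Figure D2:**
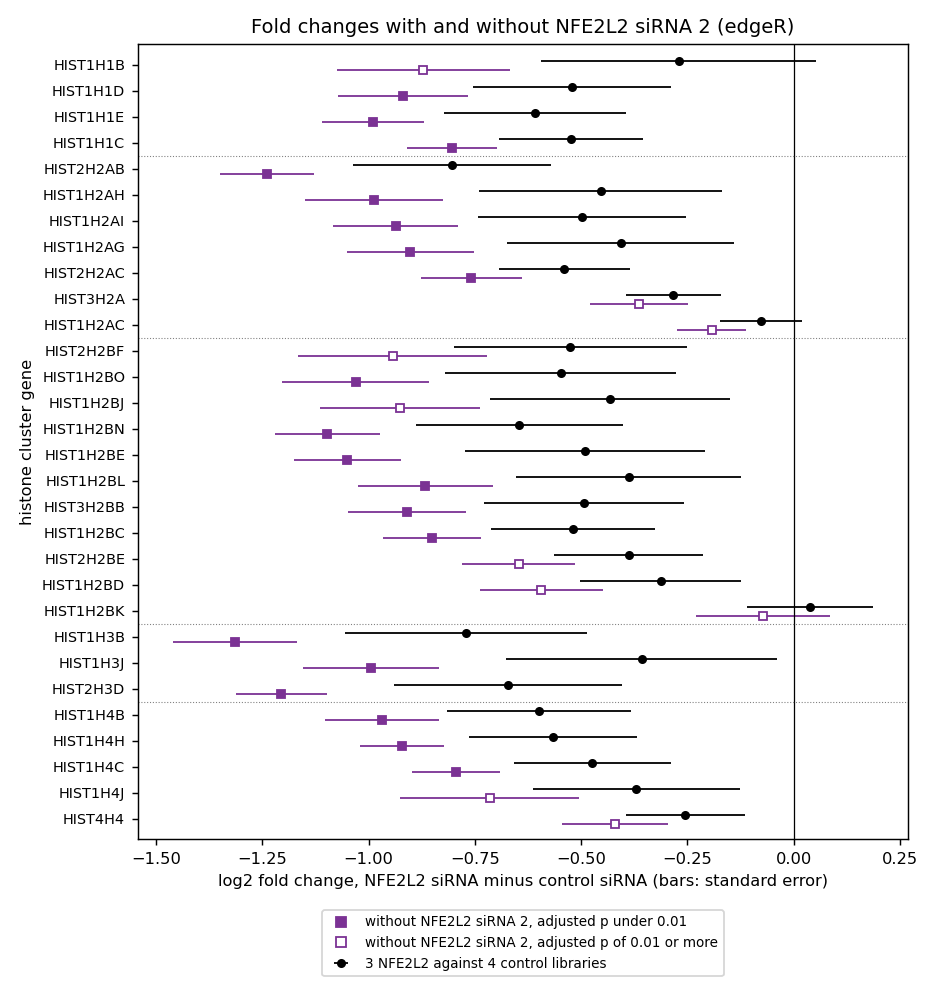
Log2 fold changes of the 30 well-counted members (horizontal axis, with standard errors as bars) from all 3 NFE2L2 libraries (black circles) and with NFE2L2 siRNA 2 left out (squares, filled where the adjusted p was under 0.01). The squares lie to the left of the circles for every gene, and 20 of them are filled.

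Gene by gene, the 30 well-counted members mostly shared 1 order of the libraries. Under NFE2L2 siRNA 1, 29 of 30 (96.7%) lay below all 4 controls, against 36.0% of the 13335 tested genes with an average of at least 50 reads. NFE2L2 siRNA 3 likewise placed 29 of 30 below all controls, against 36.3% of those genes. Under NFE2L2 siRNA 2 only 3 of 30 lay below all controls, where the share among all such genes was 31.8%, and 12 of 30 lay above, where it was 34.5%. The 3 genes below in all duplexes were HIST2H2AB, HIST2H2AC and HIST3H2A, where 12.5% of all such genes had this placing. NFE2L2 siRNA 1 and 3 below all controls, with 2 not below, was seen in 26 of 30 members and in 8.83% of all such genes. The order of NFE2L2 siRNA 1 lowest, then 3, then 2 was seen in 29 of 30 members and in 21.9% of all such genes. Members are not independent of each other, since they are measured in the same libraries and, in part, share a promoter region or near-identical sequence.

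**Figure D3:**
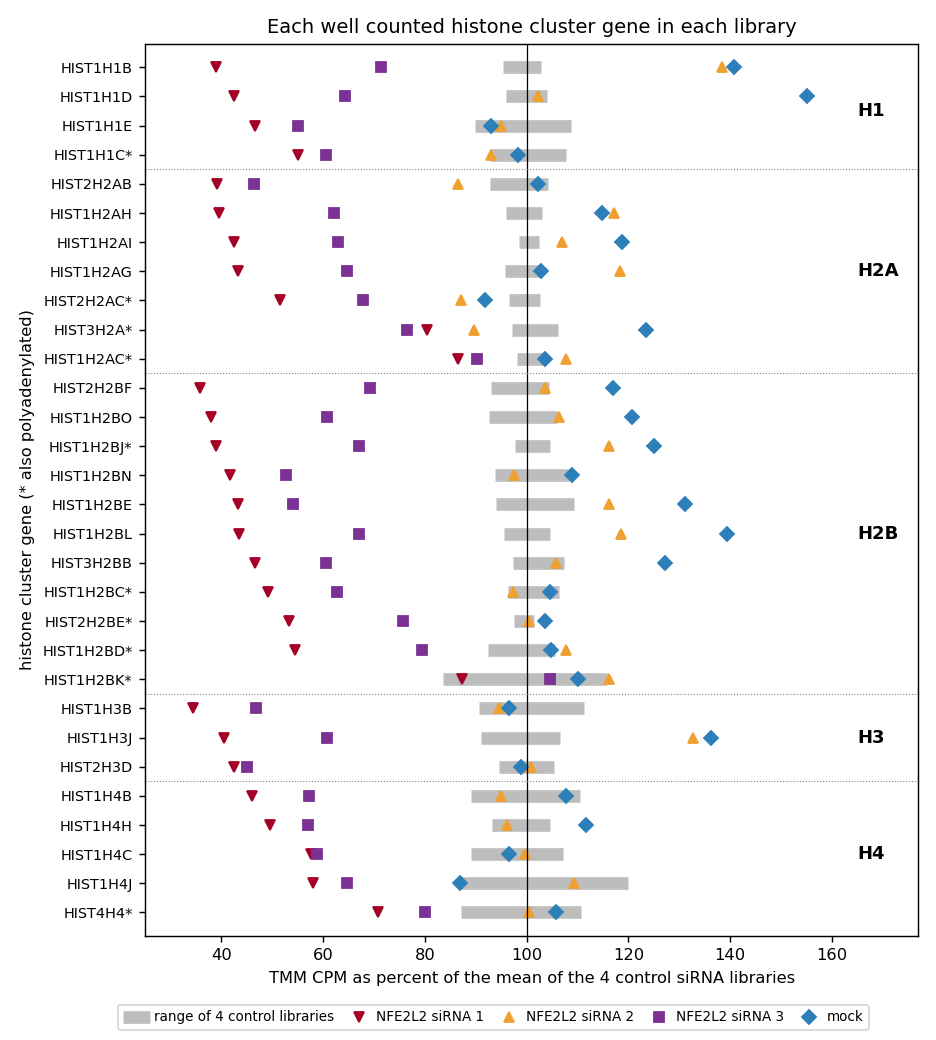
TMM CPM of each well-counted member as percent of the mean of the 4 control siRNA libraries (horizontal axis), grouped by family (vertical axis), with the range of the controls as grey bars and symbols for the NFE2L2 siRNA and mock libraries. Asterisks mark the also polyadenylated list. Red triangles and purple squares lie left of the grey bar for all genes but HIST1H2BK, and orange triangles mostly lie on or right of it.

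The linker histone genes, whose products bind the DNA that enters and leaves the nucleosome, included the most abundant members per length. HIST1H1C, which encodes H1.2, had the highest level in the controls, at 568 CPM per kilobase of exon. It gave 8183, 15175 and 10684 reads under NFE2L2 siRNA 1, 2 and 3, and 16386, 16625, 14361 and 13899 in control replicates 1 to 4. NFE2L2 siRNA 1 and 3 were below all controls and NFE2L2 siRNA 2 was within them by reads, and the log2 fold change was -0.52 (SE 0.17, adjusted p = 0.089, edgeR). HIST1H1E, encoding H1.4, gave 5370, 12027 and 7539 reads against 13027, 12790, 10697 and 11025, with the same overlap of NFE2L2 siRNA 2 with the controls, and a log2 fold change of -0.61 (SE 0.21, adjusted p = 0.112). HIST1H1D, encoding H1.3, gave 2146, 5675 and 3859 reads against 5242, 5458, 5018 and 5118, and a log2 fold change of -0.52 (SE 0.23, adjusted p = 0.200). With NFE2L2 siRNA 2 left out, all 3 were lower, with log2 fold changes of -0.80, -0.99 and -0.92 (adjusted p = 0.00211, 0.0015 and 0.0059). HIST1H1B, encoding H1.5, differed from them in that NFE2L2 siRNA 2 was at 138% of the control mean, above all controls, while NFE2L2 siRNA 1 was at 38.9%. The testis-specific HIST1H1T had 7 to 18 reads in the 7 siRNA libraries, and HIST1H1A 0 to 5.

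Among the H2A genes, HIST1H2AC and HIST3H2A stood nearest to the controls under NFE2L2 siRNA 1. HIST1H2AG gave 2423, 7280 and 4314 reads under NFE2L2 siRNA 1, 2 and 3 and 5803, 5938, 5953 and 5416 in the controls. NFE2L2 siRNA 2 lay above all controls and the other duplexes below them, with a log2 fold change of -0.41 (SE 0.27, adjusted p = 0.379). HIST1H2AH gave 1594, 5185 and 2980 reads against 4023, 4235, 4290 and 4061, a similar placing, with a log2 fold change of -0.45 (SE 0.29, adjusted p = 0.358). HIST2H2AC gave 1717, 3197 and 2698 reads against 3564, 3561, 3399 and 3257. Here the groups did not overlap, and the log2 fold change was -0.54 (SE 0.15, adjusted p = 0.061). HIST2H2AB, named after its values were seen, gave 807, 1962 and 1141 reads against 2147, 2214, 1984 and 2174, again without overlap, and had the most negative log2 fold change of the well-counted members, -0.80 (SE 0.23, adjusted p = 0.065). HIST1H2AC, in contrast, gave 4386, 6010 and 5453 reads against 5182, 5461, 5249 and 5050. In CPM it stood at 86.4%, 108% and 90.3% of the control mean, and its log2 fold change was -0.08 (SE 0.10, adjusted p = 0.668). HIST3H2A gave 280, 343 and 317 reads against 352, 359, 382 and 343. In CPM it stood below all controls under every duplex, at 80.4%, 89.6% and 76.6% of their mean, and was the single well-counted member in which NFE2L2 siRNA 3 was lower than 1. Its log2 fold change was -0.28 (SE 0.11, adjusted p = 0.151).

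The H2B genes ranged from HIST2H2BF, at 35.7% of the control mean under NFE2L2 siRNA 1, to HIST1H2BK, at 87.3%. HIST1H2BK gave 4997, 7307 and 7120 reads under NFE2L2 siRNA 1, 2 and 3 and 6904, 6786, 4945 and 5004 in the controls. Its controls themselves split by duplex, the knockdown libraries lay across them, and the log2 fold change was 0.04 (SE 0.15, adjusted p = 0.905). HIST1H2BD gave 3090, 6724 and 5365 reads against 5908, 6036, 6204 and 5298, and its log2 fold change was -0.31 (SE 0.19, adjusted p = 0.338). HIST1H2BC gave 2745, 5961 and 4160 reads against 5667, 6161, 5556 and 5617, and its log2 fold change was -0.52 (SE 0.19, adjusted p = 0.129). In both genes NFE2L2 siRNA 1 and 3 were below all controls in CPM. HIST1H2BJ gave 728, 2386 and 1492 reads against 1900, 1944, 2021 and 1844, with NFE2L2 siRNA 2 above every control, and had a log2 fold change of -0.43 (SE 0.28, adjusted p = 0.378). HIST2H2BE gave 2107, 4370 and 3562 reads against 4021, 4176, 4079 and 4052, and HIST3H2BB 228, 569 and 353 against 497, 546, 495 and 481. Their log2 fold changes were -0.39 (SE 0.18, adjusted p = 0.205) and -0.49 (SE 0.23, adjusted p = 0.226).

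Of the 5 families, the H3 genes had the lowest sum relative to the controls under NFE2L2 siRNA 1 and 3, at 36.2% and 49.3%, and stood at 103% under NFE2L2 siRNA 2. The H4 genes stood at 55.1%, 97.7% and 62.2% under NFE2L2 siRNA 1, 2 and 3, the lowest of the families under NFE2L2 siRNA 2. Whether families differed from each other was not tested. HIST1H3B, the most abundant H3 gene and the lowest of the 30 members under NFE2L2 siRNA 1, gave 2165, 6566 and 3514 reads against 6771, 7306, 5924 and 6045 in the controls. NFE2L2 siRNA 1 and 3 were at 34.3% and 46.8% of the control mean in CPM and NFE2L2 siRNA 2 was within the controls, with a log2 fold change of -0.77 (SE 0.28, adjusted p = 0.127), and of -1.31 (adjusted p = 0.00109) with NFE2L2 siRNA 2 left out. HIST1H3J gave 791, 2852 and 1413 reads against 2120, 2164, 1985 and 1797, so that NFE2L2 siRNA 2 exceeded every control, and its log2 fold change was -0.36 (SE 0.32, adjusted p = 0.530). HIST2H3D gave 410, 1071 and 518 reads against 1060, 1039, 966 and 923, with a log2 fold change of -0.67 (SE 0.27, adjusted p = 0.156).

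The H4 genes encode one of the least variable of the histones. HIST1H4C gave 1944, 3705 and 2368 reads against 3772, 3749, 3400 and 3037, and NFE2L2 siRNA 1 and 3 were at 57.5% and 58.9% of the control mean in CPM. HIST1H4H gave 1578, 3362 and 2161 reads against 3469, 3417, 3260 and 2999, and HIST1H4B gave 1458, 3309 and 2158 against 3570, 3643, 2926 and 2957. NFE2L2 siRNA 1 and 3 were at 49.5% and 57.0% for HIST1H4H and at 46.0% and 57.2% for HIST1H4B. In all 3 genes NFE2L2 siRNA 2 fell within the range of the controls. The log2 fold changes were -0.47 (SE 0.19, adjusted p = 0.149), -0.57 (SE 0.20, adjusted p = 0.110) and -0.60 (SE 0.22, adjusted p = 0.120). HIST4H4, the only member on chromosome 12, gave 1737, 2713 and 2338 reads against 2828, 2805, 2346 and 2158, and stood nearer to the controls, at 70.8%, 101% and 80.1% in CPM, with a log2 fold change of -0.26 (SE 0.14, adjusted p = 0.291).

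Some histone cluster genes are known to also give polyadenylated mRNA, which is less tied to S phase. A list of 11 such members taken from background summed to 61.3%, 101% and 74.3% of the control mean under NFE2L2 siRNA 1, 2 and 3. The other 31 members summed to 42.8%, 105% and 58.8%, so that the list stood higher under the 2 duplexes in which histone mRNA was low. With NFE2L2 siRNA 2 left out, 3 of the 10 well-counted genes of the list were lower at an adjusted p under 0.01, and 17 of the 20 off the list. The share among all genes of that fit, which is descriptive as said above, was 2.94%. The list was not uniform, since HIST1H2BJ stood at 39.0% under NFE2L2 siRNA 1, as low as the genes off the list, while HIST1H2BK, HIST1H2AC, HIST3H2A and HIST4H4 had the highest values of the 30, between 70.8% and 87.3%. The difference between the 2 sets was not tested, and whether reads came from polyadenylated or stem-loop ends was not analysed here.

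Of the well-counted members, 7 pairs lay head to head on opposite strands with 218 to 318 bases between their annotated starts. The widest, HIST1H3J and HIST1H2BO, rests on the long annotated form of HIST1H3J. The unmatched HIST1H2AM, on the same strand as HIST1H3J, starts nearer to HIST1H2BO. In 4 of the pairs the partners stood close together under NFE2L2 siRNA 1, for example HIST1H2BL at 43.5% and HIST1H2AI at 42.5% of the control mean, or HIST2H2BE at 53.2% and HIST2H2AC at 51.4%. In the other 3 they stood apart. HIST1H2BK was at 87.3% and its partner HIST1H2AH at 39.6%, HIST1H2AC at 86.4% and HIST1H2BC at 49.2%, and HIST3H2A at 80.4% and HIST3H2BB at 46.6%. In each of these 3 pairs the higher partner was on the also polyadenylated list, as was HIST1H2BC. In the pair of HIST1H2BJ and HIST1H2AG, the listed HIST1H2BJ was instead the lower partner, at 39.0% against 43.3%. Differences within pairs were described and not tested.

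Promoters, here the 250 bases before and 50 bases after the RefSeq transcription start on GRCh38.p14, were available for 39 of the 42 members. They are shown for the member with the lowest level under NFE2L2 siRNA 1, for the member with the highest, and for an H4 gene, because these differ in the motifs found. Capitals mark exact matches, on either strand, to CCAAT (read ATTGG on the other strand), TATAAA or ATTTGCAT, the octamer of histone H2B promoters, and neighbouring matches can run together.
HIST1H3B, chr6:26032050-26032349, minus strand: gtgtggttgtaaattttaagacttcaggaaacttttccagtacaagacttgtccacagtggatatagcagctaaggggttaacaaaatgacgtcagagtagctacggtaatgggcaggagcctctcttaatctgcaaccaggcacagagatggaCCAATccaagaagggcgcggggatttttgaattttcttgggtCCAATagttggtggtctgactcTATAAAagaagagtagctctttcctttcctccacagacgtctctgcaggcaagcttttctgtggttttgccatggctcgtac
HIST1H2BK, chr6:27146809-27147108, minus strand: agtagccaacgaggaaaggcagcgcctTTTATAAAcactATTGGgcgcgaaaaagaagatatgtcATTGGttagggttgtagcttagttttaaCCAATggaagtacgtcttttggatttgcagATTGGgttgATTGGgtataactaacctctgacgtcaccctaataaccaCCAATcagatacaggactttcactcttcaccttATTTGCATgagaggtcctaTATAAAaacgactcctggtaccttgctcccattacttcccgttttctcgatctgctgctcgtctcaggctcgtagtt
HIST1H4B, chr6:26027234-26027533, minus strand: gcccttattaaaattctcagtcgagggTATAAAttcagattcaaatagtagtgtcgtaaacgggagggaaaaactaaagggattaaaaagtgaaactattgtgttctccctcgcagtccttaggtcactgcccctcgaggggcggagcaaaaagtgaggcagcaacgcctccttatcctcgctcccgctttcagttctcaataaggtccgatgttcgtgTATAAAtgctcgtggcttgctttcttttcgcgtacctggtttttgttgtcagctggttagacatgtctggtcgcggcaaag

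CCAAT was found in 35 of 39 member promoters, including all H1, H2A, H2B and H3 genes and 0 of 4 H4 genes, and in 34.6% of all 34943 promoters of the table. TATAAA was found in 28 of 39 (11.6% of all promoters) and ATTTGCAT in 15 of 39 (1.77%), among them 8 of 12 H2B and 6 of 9 H2A genes. HIST1H3D and HIST1H2AD have the same promoter window, so its matches to CCAAT and ATTTGCAT count for both. The only H3 match to ATTTGCAT is that of this shared window. Windows of head-to-head genes also overlap, so a match in the overlap counts for both partners. HIST1H2AA and HIST1H2BA share their ATTTGCAT site in this way. So do HIST1H2AC and HIST1H2BC, HIST1H2AG and HIST1H2BJ, and HIST2H2AC and HIST2H2BE. TGACNNNGC, the core of the antioxidant response element to which NRF2 binds, matched 6 of 39 member promoters (15.4%) and 13.3% of all promoters. The 6 were HIST1H1A, HIST1H2AG, HIST1H2BJ, HIST1H2BN, HIST1H4H and HIST2H2AA3, of which HIST1H2AG and HIST1H2BJ share the same site. Under NFE2L2 siRNA 1 the median was 43.3% of the control mean for the 11 well-counted members with ATTTGCAT and 46.3% for the 16 without, and it was 42.5% for the 4 with TGACNNNGC and 46.6% for the 23 without. These differences were not tested, and a match is not a measured binding site.

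Near-identical copies limit the count of some members, because the counting left out reads that aligned to several places. For HIST2H2AA3, HIST2H3A and HIST2H3C, 0% of the 50-base windows of the gene occurred once in the genome, and these genes had 17 to 60, 2 to 215 and 4 to 19 reads in the 7 siRNA libraries. HIST2H2AA3 gave 18, 30 and 18 reads against 20, 21, 17 and 60, with a log2 fold change of -0.51 (SE 0.48, adjusted p = 0.548). HIST2H3A reached 215 reads in control replicate 3 and 12 to 28 in the other controls, against 2, 17 and 5 in the knockdown libraries, and its log2 fold change of -3.16 (SE 1.15, adjusted p = 0.123) rests on that library. HIST1H4J, HIST2H3D, HIST2H2BF, HIST1H2AI and HIST1H2BK had 7.94% to 42.8% of windows found once and are uncertain in level. The 17 well-counted members with at least 95% of windows found once had a median of 46.0% of the control mean under NFE2L2 siRNA 1, 99.7% under 2 and 62.2% under 3, and the 13 others 43.5%, 106% and 64.6%. The order of the 3 duplexes was the same in both sets.

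By their sums, most lists of genes that supply or handle histones stood nearer to the controls than the histone genes themselves. A sum follows its most abundant genes, and single genes of a list could differ from it. Of 18 genes for histone mRNA transcription and processing, 0 passed the threshold in either direction by edgeR, where 2.76% of all tested genes did. Their sum stood at 94.0%, 97.5% and 90.3% of the control mean. Under NFE2L2 siRNA 1, 2 and 3, 11, 6 and 10 of the 18 lay below all controls. Among all genes with an average of at least 50 reads, the shares were 36.0%, 31.8% and 36.3%. SLBP, which binds the stem-loop, gave 1269, 2285 and 1764 reads under NFE2L2 siRNA 1, 2 and 3 and 1816, 1983, 1720 and 1807 in the controls. In CPM it stood at 71.5%, 117% and 83.5% of the control mean, with NFE2L2 siRNA 1 and 3 below all controls and NFE2L2 siRNA 2 above them, and the log2 fold change was -0.14 (SE 0.15, adjusted p = 0.618). NPAT, the coactivator of histone gene transcription, gave 744, 959 and 1036 reads against 958, 981, 1055 and 1064, and CASP8AP2, a component of histone locus bodies, 1268, 1873 and 1700 against 1689, 1620, 1838 and 1725. In CPM all 3 knockdown libraries were below the controls for NPAT, and NFE2L2 siRNA 1 and 3 were for CASP8AP2. Their log2 fold changes were -0.25 (SE 0.11, adjusted p = 0.182) and -0.18 (SE 0.12, adjusted p = 0.358). Of the U7 snRNP subunits, LSM10 gave 334, 353 and 334 reads against 382, 459, 381 and 380, and LSM11 429, 838 and 674 against 499, 531, 583 and 601. LSM10 lay below all controls in every knockdown library and LSM11 spanned them, with log2 fold changes of -0.32 (SE 0.12, adjusted p = 0.143) and 0.13 (SE 0.18, adjusted p = 0.712).

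Of the 12 replication-independent histone genes, 0 passed the threshold, where 2.76% of all tested genes did, and the median log2 fold change was 0.19. H3F3B, the main H3.3 gene, gave 16073, 16491 and 16652 reads against 14889, 15399, 12172 and 12639, with a log2 fold change of 0.17 (SE 0.11, adjusted p = 0.352). H3F3A gave 427, 381 and 451 reads against 194, 180, 370 and 371, its controls split by duplex, and the linker histone gene H1F0 gave 2516, 3005 and 3788 against 2034, 2004, 2341 and 2420. In CPM, H1F0 was above all controls in every knockdown library, whereas H3F3A under NFE2L2 siRNA 2 (9.69 CPM) was below control replicates 3 and 4, so that the groups overlapped. The log2 fold changes were 0.50 (SE 0.27, adjusted p = 0.274) for H3F3A and 0.40 (SE 0.12, adjusted p = 0.067) for H1F0. H2AFZ and H2AFX, the genes of H2A.Z and H2A.X, were instead lowest under NFE2L2 siRNA 1 and 3. H2AFZ gave 6300, 10560 and 7250 reads against 10522, 11179, 9768 and 9890, and H2AFX 1817, 2838 and 1840 against 2941, 3025, 2717 and 2948. Their log2 fold changes of -0.45 (adjusted p = 0.104) and -0.51 (adjusted p = 0.077) became -0.71 (adjusted p = 0.00205) and -0.76 (adjusted p = 0.00241) with NFE2L2 siRNA 2 left out, and H2AFX was among the 4 genes other than histone cluster and H1 genes in which the stem-loop search found a match.

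Genes of DNA replication were also mostly low under NFE2L2 siRNA 1 and 3. The 24 replication genes summed to 51.9%, 93.1% and 61.4% of the control mean under NFE2L2 siRNA 1, 2 and 3, with a median log2 fold change of -0.53, and the order of NFE2L2 siRNA 1 lowest, then 3, then 2 was seen in 22 of the 24. The 12 genes listed for S phase entry include CDKN1A, CDKN1B and RB1, which restrain it. The 12 summed to 72.7%, 94.1% and 64.1%, while their median stood at 57.2%, 110% and 58.1% of the control mean. Of the 12, 6 showed that order, which was seen in 21.9% of all genes with an average of at least 50 reads. MCM4, a subunit of the replicative helicase, gave 2834, 8281 and 3251 reads against 7080, 7618, 7080 and 7461, and in CPM was slightly lower under NFE2L2 siRNA 3 (38.5% of the control mean) than 1 (40.0%). TYMS, thymidylate synthase, was at 41.6%, 51.1% and 90.2%. E2F1, a transcription factor of S phase entry, gave 498, 2210 and 1134 against 1752, 1903, 1806 and 1925. In MCM4 and E2F1, NFE2L2 siRNA 2 was above all controls and the other duplexes were below them. These genes were named after their values were seen. With NFE2L2 siRNA 2 left out, 16 of 24 replication genes and 5 of 12 S phase entry genes were lower at an adjusted p under 0.01. So were 4 of 16 histone chaperone genes, ASF1A, ASF1B, CHAF1A and CHAF1B. The share among all genes tested in that fit was 2.94%. Under NFE2L2 siRNA 1, 2 and 3, ASF1B stood at 35.5%, 128% and 51.0% of the control mean. CHAF1A stood at 47.9%, 110% and 65.7%, and CHAF1B at 33.0%, 101% and 57.3%. The sum of the 16 chaperone genes stood at 88.4%, 94.3% and 99.0%. The part of S phase activity in the histone levels was not tested.

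Only 2 of the 24 replication genes, 0 of the 12 S phase entry genes and 1 of the 16 histone chaperone genes fell with all 3 NFE2L2 libraries included, where 1.36% of all tested genes fell, and 0 rose, where 1.39% of all tested genes did. The 3 genes were low under all duplexes. ASF1A, a chaperone that hands H3 and H4 to the assembly factors, gave 677, 735 and 603 reads against 1319, 1414, 1291 and 1261, with a log2 fold change of -1.05 (SE 0.12, adjusted p = 0.00107). RRM2, a subunit of ribonucleotide reductase, gave 3125, 5781 and 3814 reads against 7632, 8271, 8083 and 8387, with a log2 fold change of -1.02 (SE 0.17, adjusted p = 0.00769). MCM5, another helicase subunit, gave 1722, 2572 and 2492 reads against 3704, 3920, 3560 and 3666, with a log2 fold change of -0.81 (SE 0.11, adjusted p = 0.00272). The groups did not overlap in any of the 3. MCM5 lost its call without NFE2L2 siRNA 3 or control replicate 2, 3 or 4 (adjusted p = 0.0102 to 0.0149), and RRM2 without any library but NFE2L2 siRNA 2 (adjusted p = 0.0175 to 0.0347).

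**Figure D4:**
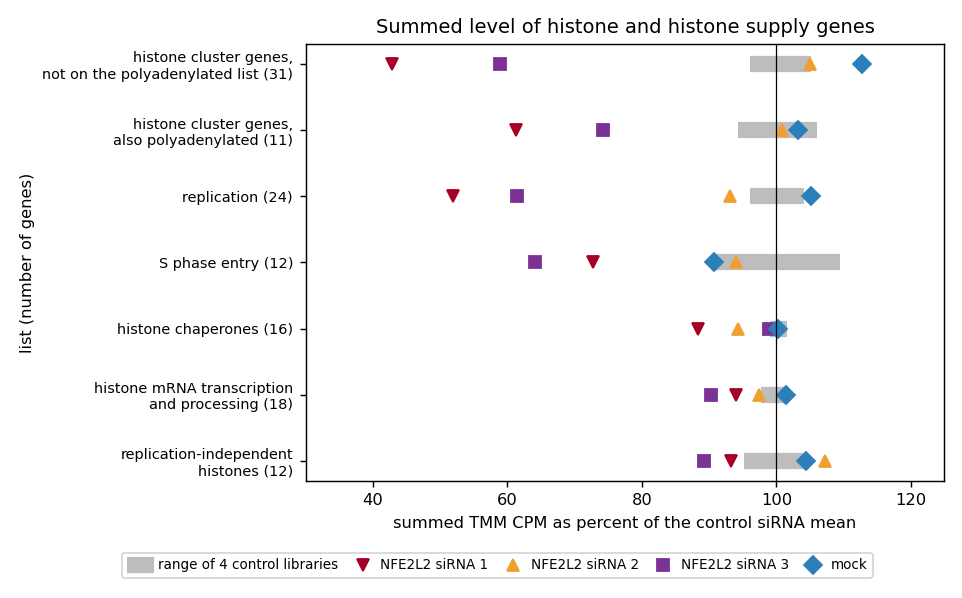
Summed TMM CPM of the histone cluster genes on and off the also polyadenylated list and of 5 lists of related genes (vertical axis, number of genes in brackets) as percent of the control siRNA mean (horizontal axis), with the range of the 4 controls in grey and symbols for the NFE2L2 siRNA and mock libraries. Histone cluster and replication genes lie far left of the grey bar under NFE2L2 siRNA 1 and 3 and near it under NFE2L2 siRNA 2, whereas the lower 3 lists lie between 88.4% and 107%.

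The spread between control duplexes was smaller than that between NFE2L2 duplexes. Comparing control duplex 2 with 1 in a fit with 3 groups, edgeR called 0 of 35 members and 0.00% of all tested genes. An unadjusted p under 0.05 was reached by 1 member (2.86%), against 7.26% of all tested genes. That fit takes its spread from the NFE2L2 libraries as well. DESeq2 also called 0 members and 0.465% of all genes. HIST1H2BK had the most negative value of the well-counted members, with a log2 fold change of -0.43 (adjusted p = 0.523). In a fit on the 4 control libraries alone, added after the data were seen, HIST1H2BK was the single member called (adjusted p = 0.00208, edgeR), where 3.29% of all genes were. Unadjusted p-values under 0.05 were then reached by 10 of 35 members (28.6%), against 26.0% of all genes. The 2 transfections of each control duplex differed little, with member sums of 3321 and 3413 CPM for the first and 3105 and 3093 CPM for the second.

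The mock library, a single sample without a test, lay below all controls for 1 of the 30 well-counted members. Among all genes with an average of at least 50 reads, 22.9% had this placing. Its sum was 109% of the control mean, and 17 of 30 well-counted members lay above all 4 controls, against 23.3% of all genes with an average of at least 50 reads. HIST1H1D stood highest, at 155% of the control mean with 8753 reads, followed by HIST1H1B at 141%, HIST1H2BL at 139% and HIST1H3J at 136%. HIST1H1B and HIST1H3J were also the members with the highest values under NFE2L2 siRNA 2, at 138% and 133%. HIST1H1E and HIST1H1C, the most abundant linker histone genes, were at 93.0% and 98.4% in the mock library. The 7 members too low to test had at most 6 reads in any of the 7 siRNA libraries.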

How the data were processed

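Strand-specific total RNA libraries were prepared with ribosomal RNA depletion. According to the study's methods and processing notes, the authors aligned reads to hg19 with HISAT 0.1.6 and counted reads per GENCODE 19 gene with HTSeq 0.6.0 (intersection-strict, reverse strand), and the deposited values are raw read counts per gene, 1 table per library. Reads aligned to several places are left out by this counting, which lowers genes with near-identical copies. Entries that name no gene (16.9% to 19.1% multiple alignments, 11.7% to 15.3% outside genes) stayed out of library sizes. Members and lists were chosen with earlier results of these data known. Symbols were joined to identifiers through RefSeq synonyms and the GENCODE 44 annotation lifted to GRCh37 (37 members) or the identifier and symbol pairs of a supplementary table (5 members). Counts were fitted in R 4.3.3 with the quasi-likelihood test of edgeR 4.0.16 (TMM, prior count 0.125, a minimum of 10 reads in 1 or more of 7 libraries, Benjamini-Hochberg, threshold 0.01, two-sided). The mock library was not fitted. DESeq2 1.42.0, limma 3.58.1, other scalings, filters, control sets and leaving out each library were alternatives. Scripts were tested on simulated data. Named in full were the 3 most abundant members of each family, tested members of the also polyadenylated list, of HIST3 and of HIST4, supply genes past the threshold, and SLBP, NPAT, CASP8AP2, LSM10, LSM11, H2AFZ, H2AFX, H3F3A, H3F3B, H1F0, NFE2L2 and NQO1. Percent of control divides the TMM CPM of a library by the control mean. Counting error alone is small for the abundant members but not for those with few reads, such as HIST2H2AA3 (17 to 60) and HIST2H3C (4 to 19). The limit that a count of 0 allows, 3 reads, is about 8e-06% of a library.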

Additional observations from a re-analysis of the deposited data

Results flagged for a closer look

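In 47 sets of 4 control values (35 members and the sums of member groups), 3 had a library standing apart by Dixon's ratio of the gap to the range, where about 1 in 20 would by chance. HIST2H3A had a ratio of 0.923, from 5.81 CPM in control replicate 3 against 0.75 in the next library, and HIST2H2AA3 had 0.912, from 1.66 CPM in control replicate 4 against 0.57. Neither gene has a 50-base window found once in the genome. HIST3H2BB had 0.961, from 14.7 CPM in control replicate 2 against 13.4, a small difference in size. In the mock library, which enters no test, HIST1H1D stood at 219 CPM, where the highest control was at 147 CPM.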

How the results depend on the processing

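No paired analysis was possible because a number shared by an NFE2L2 duplex and a control repeat links no samples. The count of histone cluster genes past the threshold went from 0 to 1 (HIST2H2AB, adjusted p = 0.00661) with a filter of 1 read, and ranged from 0 to 20 when each library was left out in turn, with 20 only without NFE2L2 siRNA 2. The median log2 fold change over tested members and the log2 ratio of the summed level (-0.45) kept their sign under every alternative run, between -0.91 and -0.24 and between -0.79 and -0.25 over left-out libraries. The count over all genes, 491, became 1314 with DESeq2, 1019 with a filter of 1 read, 120 with control duplex 1 alone, 59 with control duplex 2 alone, 772 with the mock library added to the controls, 78 with both repeats of a control duplex summed, 1456 at a threshold of 0.05, and 163 to 915 when a library was left out. Between control duplexes, the controls alone gave 1 member in place of 0, and 568 genes. Signs turned for HIST1H2BK with control duplex 1 alone (-0.17) and without NFE2L2 siRNA 2 (-0.073), control replicate 3 (-0.052) or 4 (-0.025), with 0.14 as the highest value over left-out libraries, for HIST2H2AA3 with control duplex 1 alone (0.019) and without control replicate 4 (0.11, lowest -0.81), for LSM11 without NFE2L2 siRNA 2 (-0.12, highest 0.31) and for SLBP without NFE2L2 siRNA 1 (0.0036, lowest -0.38), all with an adjusted p of 0.558 or more. The cause of these changes was not tested. Scaling by library size alone moved the median of all genes to 0.04. With 3 duplexes used once each, duplex and replicate cannot be told apart.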
